A study of Mus musculus with 4 samples.

Results

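Resident macrophages of fat are long-lived phagocytes that lie along blood vessels and clear dying cells, plasma proteins and debris. They are known in the mouse by a shared set of genes, and described here are 10 of these: Timd4, Cd163, Vsig4, Mrc1, Cd209f, Fcna, Lyve1, Folr2, F13a1 and Cbr2. The members were chosen by name, and all 10 were among the 35869 genes listed in each library. CD45+ cells had been enriched with microbeads from the stromal vascular fraction of epididymal white adipose tissue (eWAT) of male WT C57BL/6 mice, which ate ND (10% of calories from fat) or HFD (60%) for 12 weeks from 8 weeks of age. Each diet had 2 libraries, and the number of mice behind a library is not given in the sources used here, so p-values measure the spread between these libraries, which may be technical. Values are in TPM, a share of each library's transcripts that is corrected for gene length, so levels of genes can be set side by side.

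Both HFD libraries stood apart in genes of other cells. A list of 6 spermatid genes summed to 7107 TPM in HFD replicate 1 and to 1884 to 2156 TPM in the other 3 libraries, and a list of 7 fibroblast genes summed to 594 and 638 TPM in ND, against 3032 TPM in the first and 6064 TPM in the second HFD library. All 4 tested B cell genes and all 3 tested T cell genes were called lower in HFD, with median log2 fold changes of -2.02 and -2.52. The part of these transcripts in the results on the members was not tested.

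The members work at the border between vessel and tissue. Tim-4 (Timd4) binds phosphatidylserine on dying cells, CD163 takes up hemoglobin bound to haptoglobin, CRIg (Vsig4) binds complement C3 fragments, and the mannose receptor (Mrc1), the DC-SIGN relative encoded by Cd209f and the secreted ficolin A (Fcna) recognize sugars. LYVE-1 (Lyve1) binds hyaluronan of the matrix, folate receptor beta (Folr2) binds folate, factor XIII A (F13a1) crosslinks fibrin, and Cbr2 encodes a carbonyl reductase.

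Among the 10 members, 9 fell with HFD and none rose. A call needed a Benjamini-Hochberg adjusted p under 0.05 in limma over the 16849 genes tested and a change of at least 1.5-fold on log2(TPM + 1), a scale that understates the change of low genes. Of all genes tested, 10.3% were called lower and 8.08% higher by this rule. All 10 members passed the filter on low values (TPM 1 or more in 2 or more libraries), and their median log2 fold change was -2.50, beside 0.06 over all genes tested. Both HFD values lay under both ND values in 10 of 10 members and in 32.8% of all genes tested. Their summed level was 5266 and 5387 TPM in ND, against 1683 and 1314 TPM in HFD. In bulk RNA, fewer cells of a type and less RNA per cell cannot be told apart. Without HFD replicate 1 or 2 limma still put all 10 members lower in HFD, with median log2 fold changes of -2.81 and -2.23. With ND replicate 1 or 2 left out it called 0 of the 10, as it called 0 genes at all lower, although 8 of the 10 had an unadjusted p under 0.05 in each of these fits, beside 22.9% of all genes tested without ND replicate 1 and 23.9% without ND replicate 2.

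**Figure D1:**
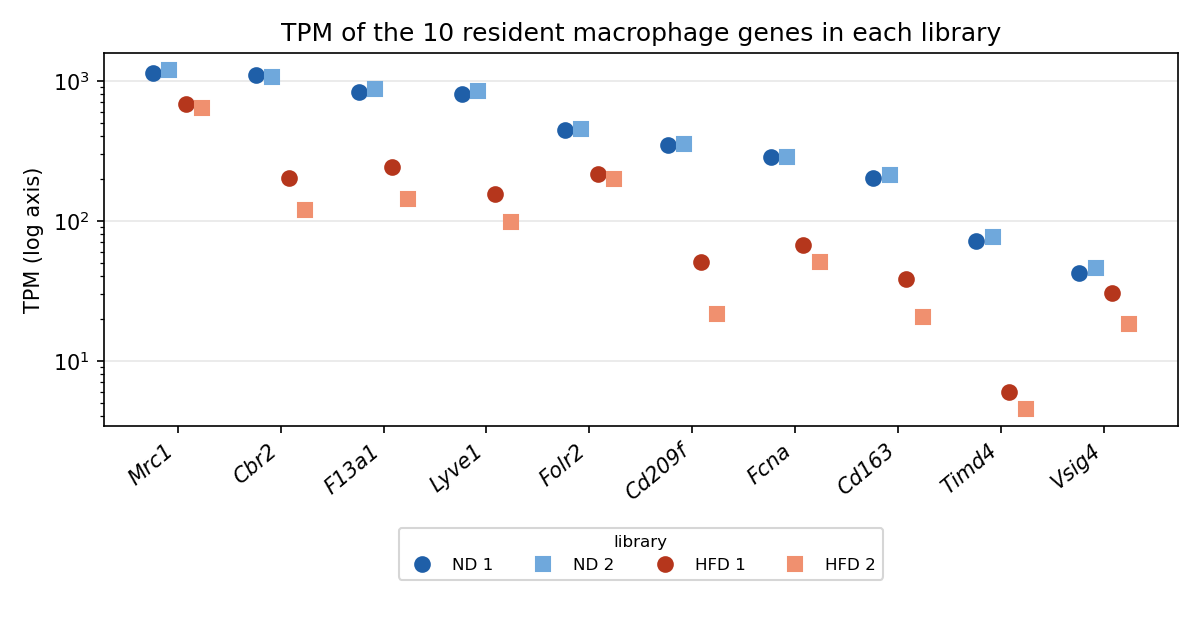
TPM of each member (log axis) in the 2 ND libraries (blue) and the 2 HFD libraries (red), with circles for replicate 1 and squares for replicate 2. Every red point lies under both blue points of its gene, with the widest distance for Timd4 and the smallest for Mrc1 and Vsig4, and HFD replicate 2 lies under HFD replicate 1 in all 10 genes.

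The receptors for dying cells, hemoglobin and complement were the first group. Positions are those of GENCODE vM21 on mm10. Timd4 (chr11:46810800-46844332, plus strand) had 71.5 and 76.3 TPM in ND, against 6.0 and 4.5 TPM in HFD. Its mean was 14.1-fold lower in HFD, the largest fall of any member, and the replicates of either diet lay close together. The log2 fold change of Timd4 was -3.59 (limma standard error 0.15, adjusted p = 0.00500), and only 9 of the 16849 genes tested had a lower one. The HFD values of Timd4 still rested on approximately 211 and 138 reads. Cd163 (chr6:124304656-124330527, plus strand) had 200.8 and 211.7 TPM in ND, against 38.6 and 20.4 TPM in HFD. It fell by 2.83 on the log2 scale (limma standard error 0.34, adjusted p = 0.0187), a 6.99-fold difference of the means, with the HFD replicates 1.89-fold apart. Vsig4 (chrX:96247203-96293438, minus strand) was the lowest member in ND, with 42.1 and 46.3 TPM, and had 30.5 and 18.2 TPM in HFD. Its diets did not overlap, but its log2 difference of -0.88 (standard error 0.28, 95% interval -1.72 to -0.03) did not reach the threshold (adjusted p = 0.111 in limma). The call of Vsig4 depended on the HFD replicate. Its log2 difference was -1.23 without HFD replicate 1 (adjusted p = 0.0415 in limma) and -0.52 without HFD replicate 2, and it was also called after quantile normalization. An exact two-sided permutation test of 2 values against 2, shown for Timd4, gave p = 0.33, the smallest that this design allows.

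The sugar-binding members spanned a wide range of changes. Mrc1 (chr2:14229392-14332057, plus strand), whose protein CD206 is widely used to mark alternatively activated macrophages, was the most abundant member in both diets, with 1144 and 1193 TPM in ND, against 677 and 636 TPM in HFD. It fell by 0.83 on the log2 scale (limma standard error 0.05, adjusted p = 0.00697), which left 56.2% of the ND mean. Fcna (chr2:25624666-25628030, minus strand) had 283.6 and 283.8 TPM in ND, against 66.9 and 51.1 TPM in HFD. The log2 fold change of Fcna was -2.26 (limma standard error 0.15, adjusted p = 0.00789), well beyond that of Mrc1 in size. Cd209f (chr8:4102787-4105835, minus strand) had 345.5 and 351.9 TPM in ND, against 50.6 and 21.6 TPM in HFD. It fell by 3.36 on the log2 scale (limma standard error 0.46, adjusted p = 0.0228), and its HFD replicates were 2.34-fold apart, the widest gap of any member. Without a filter on low values its adjusted p was 0.0573 in limma.

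Cd209f belongs to a cluster of 7 Cd209 genes within 394 kb of chromosome 8 of mm10 (chr8:3743397-4137707 in GENCODE vM21). Of the 50-base stretches of its longest transcript, 38.2% also occur in transcripts of the neighboring Cd209g, so reads could be split or lost between both genes. Cd209g had 403.4 and 400.6 TPM in ND, against 44.7 and 21.4 TPM in HFD, and the sum of both genes was 10.9-fold lower in HFD. The other 6 genes of the family were all called lower, with log2 fold changes from -3.65 for Cd209g to -2.61 for Cd209a, a gene that dendritic cells also express. Of 8 genes of conventional dendritic cells, Cd209a among them, 3 were called lower and 1 higher, and they summed to 492 and 521 TPM in ND, against 178 and 179 TPM in HFD. Most of that sum in ND was Cd209a itself, with 367.2 and 393 TPM, against 65 and 58 TPM in HFD, and Zbtb46, which defines these cells, had 3.9 and 4.0 TPM, against 1.8 and 1.9 TPM. The part of dendritic cells in the fall of the family was not tested. Cd209d went from 402.1 and 421.6 TPM to 60.5 and 20 TPM, and Cd209b from 58.9 and 64.1 TPM to 8.5 and 3.2 TPM. Cd209c and Cd209e were the least abundant in ND and fell by 3.05 and 2.64 on the log2 scale. The neighbors were chosen with earlier results known, so their shared direction is not independent evidence.

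**Figure D2:**
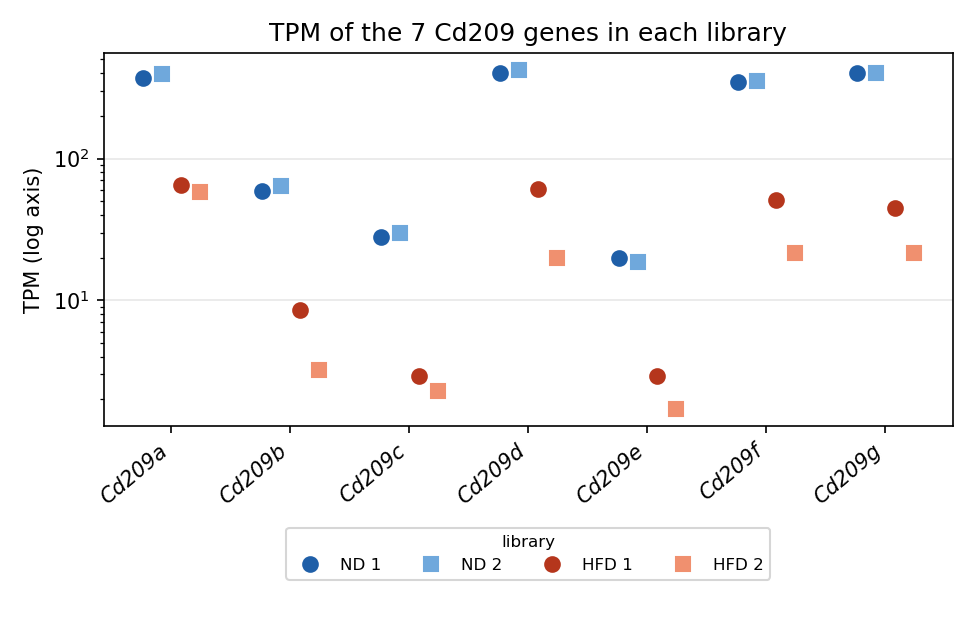
TPM (log axis) of the 7 Cd209 genes in each library, with ND in blue, HFD in red, circles for replicate 1 and squares for replicate 2. All 7 genes have both HFD points under both ND points, and the HFD replicates of Cd209b, Cd209d, Cd209f and Cd209g lie further apart than those of Cd209a.

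The matrix and folate receptors differed from each other. Lyve1 (chr7:110850607-110863239, minus strand) had 806.5 and 846.2 TPM in ND, against 154.5 and 98.5 TPM in HFD. It fell by 2.73 on the log2 scale (limma standard error 0.25, adjusted p = 0.0118), a 6.53-fold difference of the means. Lymphatic endothelium expresses Lyve1 as well. Its defining gene Prox1 was at 0.1 to 0.2 TPM in every library, and Flt4 had 7.5 and 7.7 TPM in ND, against 8.6 and 8.5 TPM in HFD. The 6 genes of that list summed to 66.6 to 71.4 TPM in ND and 88.2 to 116.9 TPM in HFD, and of the 4 tested none was called lower and 1 higher. That gene was Pdpn, which fibroblasts also express, with 9.2 and 8.6 TPM in ND, against 47.1 and 68.5 TPM in HFD. Ccl21a, the most abundant gene of the list in ND, had 46.8 and 51.5 TPM there and 30 and 37.1 TPM in HFD (log2 difference -0.54, adjusted p = 0.0666 in limma), so the higher sum in HFD came from Pdpn. The part of lymphatic endothelium in the fall of Lyve1 was not tested. Folr2 (chr7:101839988-101857194, minus strand) had 441.3 and 448.6 TPM in ND, against 216.7 and 199.7 TPM in HFD. The log2 fold change of Folr2 was -1.09 (limma standard error 0.06, adjusted p = 0.00580), with the HFD values near each other. Exons of Gm10602, on the other strand, overlap Folr2, as those of Fcnaos overlap Fcna, and whether counting used the strand is not stated in the sources used here.

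Both enzymes fell strongly. F13a1 (chr13:36867178-37050244, minus strand) had 836.0 and 869.7 TPM in ND, against 240.8 and 143.5 TPM in HFD, a log2 fold change of -2.19 (limma standard error 0.29, adjusted p = 0.0212). The antisense gene Gm30489 overlaps F13a1 and had at most 7.4 TPM. Without a filter on low values the adjusted p of F13a1 was 0.0542 in limma. Monocytes express F13a1 too, and of 8 monocyte genes 5 were called lower and none higher, with sums of 349 and 371 TPM in ND, against 151 and 203 TPM in HFD. Ly6c2, the marker of classical monocytes, was among the lower ones and went from 61.6 and 66.3 TPM to 13 and 20.5 TPM. Cbr2 (chr11:120729489-120732114, minus strand) was second only to Mrc1 in ND, with 1094.7 and 1058.8 TPM, and had 202.2 and 119.9 TPM in HFD. It fell by 2.78 on the log2 scale (limma standard error 0.29, adjusted p = 0.0144). Of its 50-base stretches, 15.1% also occur in transcripts of Gm11771. What part of the fall of F13a1 lies in monocytes was not tested.

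The folds of the members spanned a wide range. The 95% intervals of the log2 fold changes of Folr2 (-1.26 to -0.92) and Mrc1 (-0.98 to -0.68) lay wholly above those of Timd4, Cd209f, Cd163, Cbr2, Lyve1, Fcna and F13a1, of which the nearest was F13a1 with -3.05 to -1.33. No test of a difference between genes was made. At a limit of 2-fold, 8 members were called lower, beside 5.32% of all genes tested, and none higher, beside 4.18%. Mrc1 made up 21.7% and 22.2% of the summed level of the 10 genes in ND and 40.2% and 48.4% in HFD. Folr2 went from 8.38% and 8.33% of that sum to 12.9% and 15.2%, while Cbr2 went from 20.8% and 19.7% to 12.0% and 9.13% and Timd4 from 1.36% and 1.42% to 0.356% and 0.343%.

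**Figure D3:**
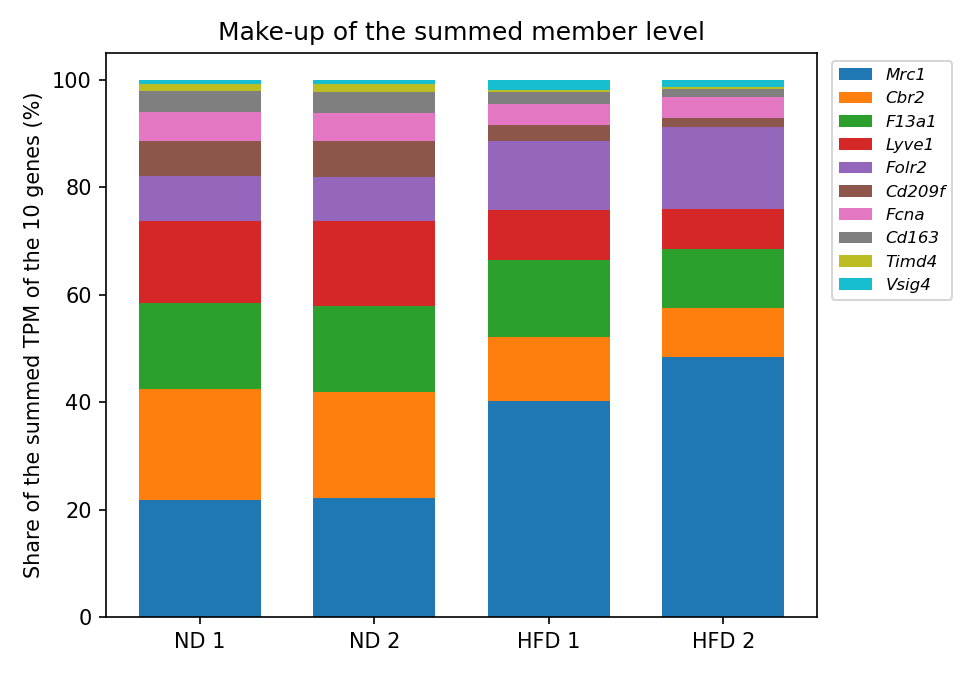
Share of each member in the summed TPM of the 10 genes, in percent, in each of the 4 libraries. Mrc1 (blue, bottom) grows from 21.7% and 22.2% in ND to 40.2% and 48.4% in HFD, and Cbr2 (orange) shrinks.

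The order of the levels changed as well. In ND it ran from Mrc1 over Cbr2, F13a1, Lyve1, Folr2, Cd209f, Fcna, Cd163 and Timd4 to Vsig4, and the ranges of neighbors overlapped only for F13a1 and Lyve1. In HFD it ran from Mrc1 over Folr2, F13a1, Cbr2, Lyve1, Fcna, Cd209f, Cd163 and Vsig4 to Timd4. There the ranges of Folr2 and F13a1, F13a1 and Cbr2, Cbr2 and Lyve1, Cd209f and Cd163, and Cd163 and Vsig4 overlapped. Folr2 moved from the fifth place to the second, and Timd4 from the ninth to the last.

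HFD replicate 2 was lower than HFD replicate 1 in 10 of 10 members, and in 62.8% of all genes tested. The gap on the log2(TPM + 1) scale had a median of 0.68 over the members, from 0.09 for Mrc1 to 1.19 for Cd209f, while the ND replicates of a member differed by at most 0.13. With HFD replicate 1 left out, the median log2 fold change of the members was -2.81, and with HFD replicate 2 left out it was -2.23.

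General markers of leukocytes and macrophages changed less than most members. Ptprc, the gene of CD45, had 54.5 and 59.4 TPM in ND, against 55.3 and 53.7 TPM in HFD. Of 10 macrophage genes, 1 was called lower (C1qa, log2 fold change -0.62) and 2 higher (Adgre1, the gene of F4/80, 0.78, and Cd68, 0.86), and their mean log2(TPM + 1) was 9.65 and 9.66 in ND and 9.55 and 9.62 in HFD. With this mean subtracted from each library, limma called 9 members lower. Of all 16849 genes tested it called 1476 lower and 1616 higher in that fit. The log2 differences of the members then went from -3.52 for Timd4 to -0.76 for Mrc1. Genes of lipid-associated macrophages, the kind that gathers around dying adipocytes, went the other way. Of 10 such genes, 9 were called higher and none lower, and Trem2, a lipid receptor, had 71.8 and 79.0 TPM in ND, against 652.9 and 672.9 TPM in HFD. Large peritoneal macrophages also express Timd4 and Vsig4. Of 6 of their genes 4 were called lower, Alox15 (-2.31), Serpinb2 (-1.67), Prg4 (-1.54) and Selp (-0.835). Icam2 (-0.50) and Gata6 were not called. Gata6, the factor that defines these cells, was low in all libraries. It had 3.3 and 3.8 TPM in ND, against 2.8 and 3.3 TPM in HFD (adjusted p = 0.401 in limma). The part of peritoneal cells in the fall of the members was not tested.

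**Figure D4:**
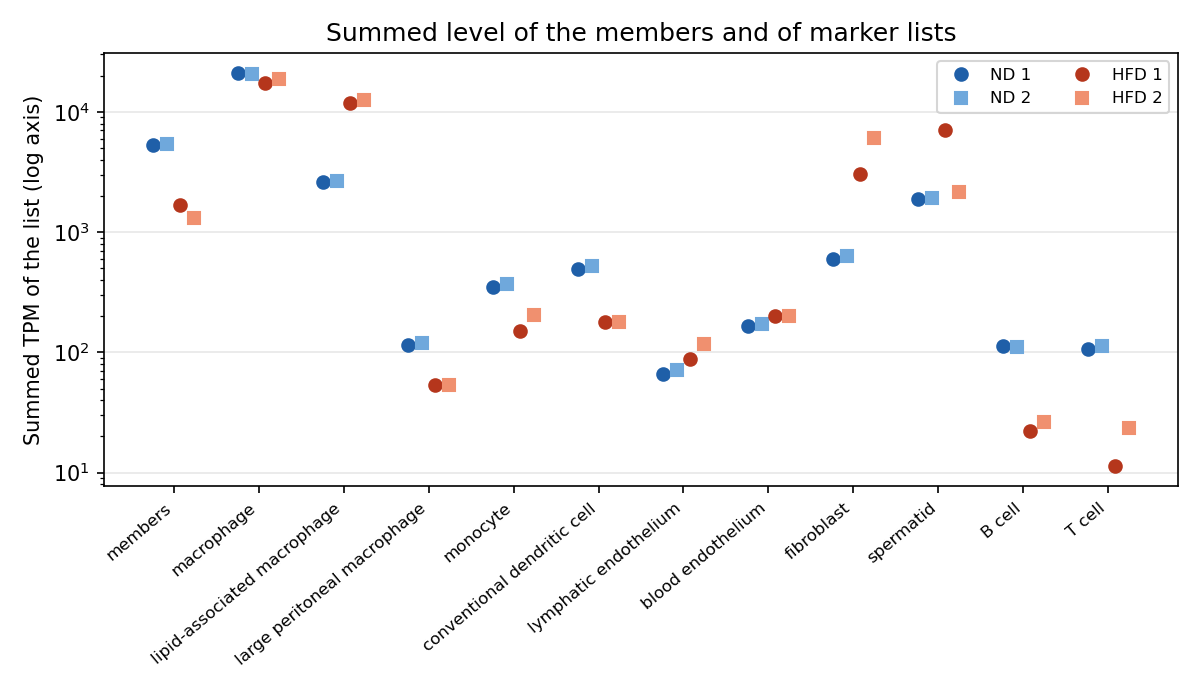
Summed TPM (log axis) of the 10 members and of 11 lists of marker genes in each library, with ND in blue, HFD in red, circles for replicate 1 and squares for replicate 2. The members fall from 5266 and 5387 TPM to 1683 and 1314 TPM, and the macrophage list goes from 21176 and 20519 TPM to 17505 and 18843 TPM. The lists for lipid-associated macrophages and fibroblasts are higher in both HFD libraries.

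Other genes known from resident macrophages mostly followed. Of 16 such genes, 12 were called lower and none higher, with a median log2 fold change of -1.18. Ccl24, an eosinophil chemoattractant, fell from 288.6 and 295.6 TPM to 26.9 and 14.5 TPM, a log2 fold change of -3.82 (limma standard error 0.33, adjusted p = 0.0109). Ltc4s, the leukotriene C4 synthase, fell by 3.01 on the log2 scale, and lower values were also called for Fxyd2 (-2.41), Fcrls (-2.20), the iron exporter Slc40a1 (-2.09) and the endothelin receptor Ednrb (-1.73). Smaller falls were seen in Gas6, a bridge between phosphatidylserine and TAM receptors (-1.60), the chemokine Pf4 (-1.26), the lectin Clec10a (-1.11), C4b (-1.06), Dab2 (-0.90) and the scavenger receptor Stab1 (-0.71). Igf1 (0.03), Cd5l (-0.17), Selenop (-0.32) and Hmox1 (-0.38) were not called. Cd5l was higher in HFD replicate 2 (32.2 TPM) and lower in HFD replicate 1 (14.1 TPM) than in ND (22.9 and 25.6 TPM). Without ND replicate 1 or 2 none of the 16 was called.

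**Figure D5:**
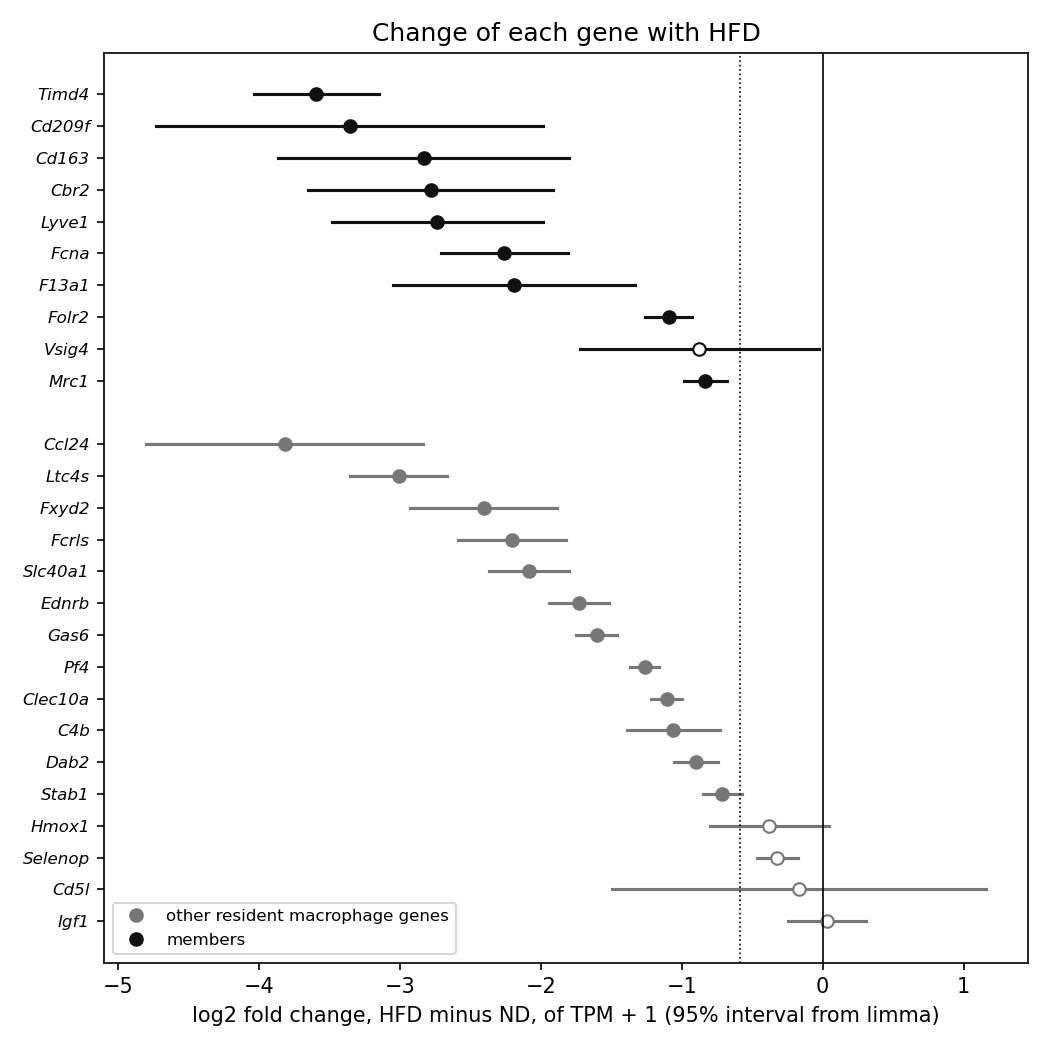
Log2 fold change on TPM + 1, HFD minus ND, of the 10 members (black) and of 16 other resident macrophage genes (grey), with bars for the 95% interval from limma. Filled points were called lower, open points were not, and the dotted line marks a 1.5-fold fall. The members range from -3.59 for Timd4 to -0.83 for Mrc1, and the interval of Vsig4 reaches from -1.72 to -0.03.

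Genes that share a ligand or a family with a member did not all share its direction. Lyve1 fell, but of 8 tested genes of other hyaluronan receptors and enzymes 7 were called higher, such as Cd44 (log2 fold change 1.02), the hyaluronidase Hyal1 (2.10) and the synthase Has1, which had 15.0 and 14.0 TPM in ND, against 74.2 and 206.7 TPM in HFD. Mrc1 fell while Mrc2, its relative of stromal cells, went from 1.8 TPM in both ND libraries to 18.1 and 44.7 TPM (log2 fold change 3.40, adjusted p = 0.0248 in limma). Has1, Mrc2 and the fibroblast list all had their highest value in HFD replicate 2, and the part of fibroblasts in both genes was not tested. Among the relatives of Cbr2, Cbr1 (0.67) and Cbr3 (1.07) were called higher and Dcxr and Cbr4 were not called. Of 8 tested phosphatidylserine receptors and bridges, 3 were called lower and 3 higher, and Mfge8 went from 81.5 and 80.1 TPM to 481.9 and 485.1 TPM. Havcr2, the gene of Tim-3, was at 1.06 (adjusted p = 0.0522 in limma), and its relatives Havcr1 and Timd2 were at most 0.2 TPM.

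For the partners of Cd163 in handling hemoglobin and its heme, 1 of 9 tested genes was called lower and 2 higher. Slc40a1 was the lower one, Blvra (0.93) and the hemopexin receptor Lrp1 (1.34) were higher, and haptoglobin itself (Hp) had 40.2 and 39.9 TPM in ND, against 33.7 and 57.4 TPM in HFD. Around Folr2, the folate transporters Slc46a1 (-0.51) and Slc19a1 (-0.24) were not called, and Folr1 was at most 0.4 TPM. Tgm2, a transglutaminase like factor XIII A, rose by 0.74 on the log2 scale, while Tgm1 fell by 1.33. In the list of complement C3 and its receptors, Itgb2 was higher (0.76), and C3, whose fragments CRIg binds, had 155.2 and 162.7 TPM in ND, against 288.9 and 656.9 TPM in HFD (adjusted p = 0.106 in limma). Of 3 tested genes of the lectin pathway, in which Fcna acts, 1 was called lower and none higher. This was Colec11, a collectin, with 2.2 and 2.0 TPM in ND, against 0.8 and 0.5 TPM in HFD (limma log2 fold change -0.92, adjusted p = 0.0294). The related Fcnb was at most 0.3 TPM, and Mbl1, Mbl2 and Colec10 were listed at 0 in every library.

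Of 12 regulators and growth factors of macrophages, 4 were called lower and 1 higher. Maf, the gene of c-MAF, a transcription factor on which perivascular macrophages of fat depend, had 279.3 and 291.6 TPM in ND, against 99.0 and 96.8 TPM in HFD. It fell by 1.53 on the log2 scale (limma standard error 0.04, adjusted p = 0.00412), with no overlap between the diets. Klf2 (-1.14), Klf4 (-0.63) and Spic (-1.67), a factor of iron-recycling macrophages, were the other lower ones, and Nr1h3, the gene of the sterol receptor LXR alpha, was higher (1.93). Csf1r (-0.56) and Tgfbr2 (-0.55) did not reach a 1.5-fold change.

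Promoter windows in RefSeq for GRCm38.p6, the assembly called mm10, from 250 bases before to 50 after a start site, were found for 9 of the 10 members in 11 windows. Lyve1 is named only. They were searched on both strands for TGCTGA, the core of sites bound by MAF factors, and for GAGGAA, the core of sites bound by PU.1, the general factor of myeloid cells. The first occurred in 6 of 11 member windows (54.5%) and in 19.5% of all 32851 windows, and the second in 6 of 11 (54.5%) and in 28.3% of all. Windows with the MAF core belonged to Cbr2, Fcna, Folr2, Timd4 and Vsig4. Those with the PU.1 core belonged to Cbr2, F13a1, Fcna, Mrc1 and Vsig4, and Cd163 and Cd209f had neither. The TATA box letters TATAAA, searched as well, occurred in 1 of 11 (Cd209f) and in 13.6% of all. Shown are the stretches before the outermost annotated start of the member that fell most, Timd4 (chr11:46810549-46810785, plus strand), and of both members with the smallest changes, Mrc1 (chr2:14229164-14229391, plus strand) and Vsig4 (chrX:96293439-96293688, minus strand). Each is written in the direction of its gene, and capitals mark either core or its reverse complement, which do not overlap here.
Timd4: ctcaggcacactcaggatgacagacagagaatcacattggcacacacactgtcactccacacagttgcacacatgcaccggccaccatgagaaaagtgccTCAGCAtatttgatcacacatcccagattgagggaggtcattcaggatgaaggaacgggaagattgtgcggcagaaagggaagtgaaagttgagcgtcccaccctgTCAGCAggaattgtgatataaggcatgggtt
Mrc1: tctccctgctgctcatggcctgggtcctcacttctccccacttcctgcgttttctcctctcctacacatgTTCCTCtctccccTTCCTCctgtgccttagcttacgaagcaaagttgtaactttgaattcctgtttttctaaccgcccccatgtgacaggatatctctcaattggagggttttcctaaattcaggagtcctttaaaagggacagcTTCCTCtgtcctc
Vsig4: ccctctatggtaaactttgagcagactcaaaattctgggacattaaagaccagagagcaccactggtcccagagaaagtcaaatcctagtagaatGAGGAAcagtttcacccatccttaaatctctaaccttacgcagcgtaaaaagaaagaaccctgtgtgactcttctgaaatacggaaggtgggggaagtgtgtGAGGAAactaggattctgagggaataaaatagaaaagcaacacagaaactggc

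The stretch of Timd4 holds the MAF core 2 times, both on the opposite strand, and no PU.1 core. In Mrc1 the PU.1 core occurs 3 times on the opposite strand, and in Vsig4 it occurs 2 times on the same strand, at positions -155 and -53 from the start site, with a MAF core on the opposite strand at position 24 after it, outside the stretch shown. These matches are of letters and were tested neither as sites nor for a link with the size of the falls.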

How the data were processed

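The authors prepared stranded mRNA libraries from CD45+ cells, trimmed reads with Trim Galore 0.4.2 and cutadapt 1.9.1, aligned them to mm10 with STAR 2.6.1e, removed duplicates, counted reads per gene with featureCounts 1.6.2 and deposited TPM values, printed to 1 decimal. The gene annotation behind the counts is not given in the sources used here. No count model was used, since TPM are not counts. Depth was estimated from microRNA genes, whose TPM times length fell on multiples of 1 read, and exon lengths in GENCODE vM21. It came to approximately 37500000 to 46800000 reads per library. Replicates differed by more than counting error (3.00 times its variance in ND, 12.4 times in HFD), so each library was 1 sample.

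Genes that reached 1 TPM in 2 or more libraries were tested as log2(TPM + 1) with limma 3.58.1 in R 4.3.3 (eBayes with a variance trend), HFD against ND. Limma pools the spread of both diets, and the HFD replicates differed more. The steps were tested on simulated data. The genes named were the 10 members, genes of the related and cell type lists and the 5 genes most like the members. Genes whose exons or sequence overlap a member were named as well. Members and lists were chosen with earlier results of these data known. Older symbols (Sepp1 for Selenop) were matched through RefSeq synonyms. Alternatives changed the pseudocount, filter, variance trend, block, scaling and fold limit, or left out each library. Fits without a library assume that the lone sample of a diet varies like the others. Figures used matplotlib 3.10.9. Some genes of the related lists are not reported here.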

Additional observations from a re-analysis of the deposited data

How the results depend on the processing

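The fall of the members kept its direction under every alternative run. Over 140 results of single members under 10 alternatives and 4 fits that each left out a library, 115 stayed on their side of the thresholds, 23 were weaker, 2 were stronger and 0 reversed. The number of members called lower was 9. It was 7 without a filter and 6 with a replicate block, and ranged from 0 to 10 when a library was left out. Without ND replicate 1 or 2, limma called 0 of all genes lower, while 3862 and 4024 genes had an unadjusted p under 0.05. The spread then rests on the HFD replicates alone. Leaving out a library moved the count of all genes called lower, 1736, to between 0 and 1691, that of the 16 other resident macrophage genes, 12, to between 0 and 12, and the median log2 fold change of the members, -2.50, to between -2.81 and -2.23. The count over all genes was 1072 with a pseudocount of 5 and 405 with a replicate block, and the cause was not tested. With a mean TPM of at least 5 it was 1109, of 10723 genes tested. A 2-fold limit, which keeps a part of the same calls, left 897.

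With the replicate block, the log2 fold changes of Cd163, Cd209f and F13a1 stayed at -2.83, -3.36 and -2.19 with adjusted p-values of 0.0558, 0.0580 and 0.0585 in limma. Same-numbered samples did not deviate together (correlation of deviations -0.015), and the numbers were treated as names only. Subtracting the macrophage mean moved the median of all genes from 0.06 to 0.12. Depth limits genes near 0.1 TPM, which rest on single reads.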

Other observations

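The genes whose profile over the 4 libraries lay nearest to the median profile of the 10 members, among 10713 other genes with a mean TPM of at least 5, were Hr, Cebpe, Mgl2, Fxyd2 and Cd209e. The measure was the root mean square distance of log2(TPM + 1) centred on each gene's mean, and it describes 4 libraries only. Mgl2, a lectin of macrophages and dendritic cells, had 235.6 and 240.1 TPM in ND, against 50.1 and 37.3 TPM in HFD, at a distance of 0.083. Hr, the gene of the corepressor hairless, had 50.7 and 50.1 TPM in ND, against 10.3 and 6.9 TPM in HFD, at a distance of 0.052. Cebpe, a transcription factor known from granulocyte development, had 35.4 and 34.7 TPM in ND, against 6.2 and 4.0 TPM in HFD, at a distance of 0.057. All 5 had HFD replicate 2 under HFD replicate 1, as the members did, which the measure of likeness favors.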
